A study of Homo sapiens with 6 samples.

Results

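The plakin and desmosome genes examined here were 10 of the 60649 gene rows of an RNA-seq count table: the plakins PPL, EVPL, DSP and PLEC, the desmosomal cadherins DSC2 and DSG2, the plakophilins PKP2, PKP3 and PKP4, and JUP. They were found by gene symbol through the gene identifier. PPL was chosen by its measured METTL3 difference, since the study had listed it among the genes raised by METTL3, so that difference between the groups is given as a description with no test. The other 9 were included for their family. All 10 passed the filter on low counts, and no member was left out.

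The cells were OVCAR5, an established human ovarian cancer line of epithelial character. Stable lines had been made by lentiviral delivery of a METTL3 expression construct or of an empty vector, each followed by puromycin selection, and the labels name no further drug. The 3 METTL3 libraries and 3 vector libraries were numbered 1 to 3 in each group. The design text calls the controls parental whereas the treatment protocol describes an empty vector; they are called vector here. METTL3 is the catalytic subunit of the complex that writes N6-methyladenosine (m6A) on mRNA, and the comparison asks which transcripts differ when it is overexpressed. Nothing in the labels says whether the libraries of a group came from separate cultures, so p-values measure the spread between these libraries, which may be technical.

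Desmosomes are adhesive junctions that tie the intermediate filaments of neighbouring epithelial cells together. Desmosomal cadherins (desmocollins and desmogleins) span the membrane, armadillo proteins (plakoglobin and the plakophilins) bind their tails inside the cell, and plakins link that plaque to keratin. Other plakins anchor filaments at hemidesmosomes or help build the cornified envelope of stratified epithelium. Carcinoma cells keep or lose these junctions to differing degrees.

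METTL3 mRNA was checked first. It stood at 152, 165 and 175 CPM (counts scaled to the library total, with TMM factors) in METTL3 libraries 1 to 3 and at 80.6, 68.6 and 71.6 CPM in vector libraries 1 to 3, a log2 difference of 1.16 (SE 0.12). All METTL3 libraries lay above all vector libraries, as labelled, although the adjusted p-value was 0.072 (edgeR quasi-likelihood test). Within replicate numbers 1 to 3 the log2 ratio was 0.92, 1.27 and 1.29, so the rise of METTL3 was smallest in replicate 1. Total counts were 96633925 to 125463386 per library, and the members' own counts ran from 1707 to 206887, so counting error was small beside the differences between replicates. The libraries numbered 1 stood apart from the others in both groups: 4.25% of 22038 genes were higher and 4.81% lower in replicate 1 at an adjusted p-value under 0.05, against 0 genes for replicate 2 or replicate 3 (191 and 273 genes, or 0.867% and 1.24%, at an unadjusted p-value under 0.05). The tests of replicates 2 and 3 kept replicate 1 among the other libraries, where it added to the spread, so their 0 is not a like contrast. Because replicate 1 stood apart, the counts of called genes below are also given without it. So are the values of the members and wider junction genes described whose call or direction changed. Of the marker genes of the labelled cell type, EPCAM, CDH1, KRT8, KRT18 and KRT19 summed to 6912 to 7906 CPM with METTL3 and 5593 to 8834 CPM with vector. The fibroblast markers COL1A2 and DCN, the leukocyte markers PTPRC and CD3E and the endothelial marker KDR were at or near 0 in every library. Summed over each list, the fibroblast markers stood at 17.5 to 20.05 CPM with METTL3 and 9.15 to 20.3 with vector, mostly COL1A1. The leukocyte markers stood at 36.0 to 48.0 and 44.9 to 64.4 CPM, mostly LYZ and CD14, and the endothelial markers at 7.99 to 22.2 and 5.15 to 8.18 CPM, mostly PECAM1. In bulk RNA, fewer cells expressing a gene and less of its RNA per cell cannot be told apart.

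Sequence was examined because METTL3 acts at short sequence motifs. GGACT, with U for T in RNA, is a frequent form of the m6A motif, in which the central A is methylated. It was searched on the sense strand of the Ensembl canonical transcript of each member (GENCODE 44, GRCh38), and m6A itself was not measured in these libraries. PPL (chr16:4882507-4960741, minus strand) held 9 GGACT, all in its coding sequence, or 1.44 per kb of transcript. Over the 14873 protein-coding genes tested, the median was 0.943 per kb and the quartiles were 0.569 and 1.4 per kb. PPL had the highest density among the members, but PKP3 was close at 1.42 per kb, followed by PKP4 at 1.3 and PKP2 at 1.18. The 9 windows of PPL are shown for that reason, with GGACT in capitals, 10 bases on each side, 5′ to 3′ on the minus strand of GRCh38. Sites 4 and 7 run across an exon junction, so their genomic span is longer than the 25 bases printed.
PPL site 1, chr16:4903961-4903985, exon 3: agaaggtgttGGACTctgagaagct
PPL site 2, chr16:4901050-4901074, exon 5: cagagctttgGGACTgacctgccgc
PPL site 3, chr16:4899329-4899353, exon 7: gttcgctgcaGGACTacatgcagcg
PPL site 4, chr16:4895715-4897697, exon 9: agtacatggaGGACTaccaccagtt
PPL site 5, chr16:4895658-4895682, exon 10: tgcgcaaggtGGACTcggacctgaa
PPL site 6, chr16:4892038-4892062, exon 15: tgcagctgctGGACTtggcccagga
PPL site 7, chr16:4888205-4888988, exon 20: aagctgtaaaGGACTatgagttaga
PPL site 8, chr16:4885986-4886010, exon 22: ggaataggccGGACTctggagtgga
PPL site 9, chr16:4883835-4883859, exon 22: tgaccgtggcGGACTctgggaccaa

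EVPL (chr17:76004502-76027306, minus strand), the plakin that pairs with PPL in the cornified envelope, held 5 GGACT, again all coding. Its canonical transcript has 22 exons, as does that of PPL. The 2 EVPL windows most like a PPL window are shown for comparison, on the minus strand of GRCh38 with GGACT in capitals. Over the 45 pairs of PPL and EVPL windows, the closest pair was PPL site 4 with EVPL site 2, the same at 21 of 25 bases and both in exon 9. The next was PPL site 7 with EVPL site 5, the same at 17 bases and both in exon 20. Both EVPL windows cross an exon junction.
EVPL site 2, chr17:76019652-76021490, exon 9: agcacgtggaGGACTaccgccggtt
EVPL site 5, chr17:76011869-76012016, exon 20: cagcgctccaGGACTatgagctcca

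The other members differed in where the motif lay. DSP (chr6:7541338-7586714, plus strand) held 7 GGACT and PLEC (chr8:143915153-143976734, minus strand) held 5, all coding. DSC2 (chr18:31058840-31102522, minus strand) and PKP2 (chr12:32790745-32896798, minus strand) each held 2 coding and 3 in the 3′ UTR. DSG2 (chr18:31498177-31549008, plus strand) held 4 coding and 1 in the 3′ UTR, PKP4 (chr2:158456952-158682879, plus strand) 5 and 1, and PKP3 (chr11:392614-404908, plus strand) 3 and 1. JUP (chr17:41754604-41786931, minus strand) held none, as did 8.65% of the protein-coding genes tested, but it held 6 GGACA and 5 GGACC, which are also forms of the motif.

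Per length, PLEC was the most abundant member and DSC2 the least. Levels between genes were compared as TPM, which divides counts by the length of merged exons and scales each library to the same sum, as mean ± SD over 6 libraries. PLEC, the plectin that ties filaments to hemidesmosomes and to other cytoskeleton, stood at 378 ± 93.9 TPM. JUP, or plakoglobin, which is found in both desmosomes and adherens junctions, followed at 182 ± 59.4 TPM. PKP3, a plakophilin of broad epithelial expression, stood at 136 ± 26.0 TPM, PPL at 102 ± 41.5 TPM and PKP4, a plakophilin relative found at adherens junctions as well, at 91.7 ± 11.5 TPM. Below these came the desmoglein DSG2 at 64.1 ± 7.49 TPM, EVPL at 61.8 ± 11.4 TPM and the desmosomal plakin DSP at 49.9 ± 9.67 TPM. The plakophilin PKP2 was at 29.1 ± 5.39 TPM and the desmocollin DSC2 at 7.03 ± 1.36 TPM.

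By merged exon length, only the 2 lowest members were set apart from the gene above them by more than their ranges. The lowest DSP value, 41.9 TPM, exceeded the highest PKP2 value, 34.7 TPM, and the lowest PKP2 value, 23.2 TPM, exceeded the highest DSC2 value, 8.78 TPM. The ranges of the 7 other neighbouring pairs overlapped. Within single libraries, PLEC exceeded JUP, PKP3 exceeded PPL and PKP4 exceeded DSG2 in 6 of 6 libraries. JUP exceeded PKP3 and EVPL exceeded DSP in 5 of 6, whereas PPL exceeded PKP4 and DSG2 exceeded EVPL in 4 of 6. With the length of the longest transcript in place of merged exons, PPL and PKP4 changed places, as did EVPL and DSP. PKP2 then stood at 47.8 TPM, beside EVPL at 48.0 TPM and DSP at 48.7 TPM, so the gap between DSP and PKP2 rests on the merged exon length.

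**Figure D1:**
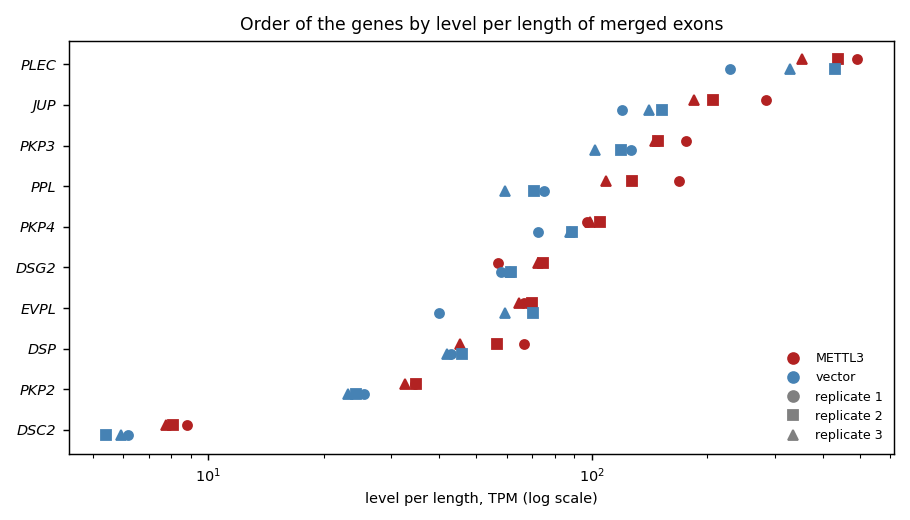
Level per length of each member (TPM, log axis) in 3 METTL3 libraries (red) and 3 vector libraries (blue), with the replicate number as the marker shape. PLEC leads and DSC2 lies below 10 TPM in every library, with PKP2 between DSC2 and the rest.

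With METTL3, all 9 members other than PPL had a positive log2 difference, with a median of 0.32. PPL, chosen for its rise, was positive too, and the median over the 10 was 0.35. The median over all genes tested was -0.02, and 44.9% of the genes with at least 10 CPM were above 0. For 6 members every METTL3 library lay above every vector library: PPL, DSC2, PKP2, PKP3, PKP4 and JUP, so 5 of the 9 other than PPL. Across all genes tested this held for 8.47%, and the reverse pattern, seen in no member, for 8.93%. Among genes of at least 10 CPM the shares were 10.7% and 11.2%. None of the 9 passed an adjusted p-value of 0.05 in edgeR's quasi-likelihood test on 6 libraries, in which 0 of 22038 genes passed (percent called 0). At an unadjusted p-value under 0.05, 4 of the 9 were higher (DSC2, PKP2, PKP3 and JUP), against 4.4% of all genes higher and 3.91% lower. DESeq2 called 2 of the 9, PKP2 and JUP, both higher, against 0.876% of all genes called higher. JUP alone passed when low counts were not filtered, against 0.782% of genes called higher, and PKP2 alone passed without vector replicate 1, against 0.676%.

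**Figure D2:**
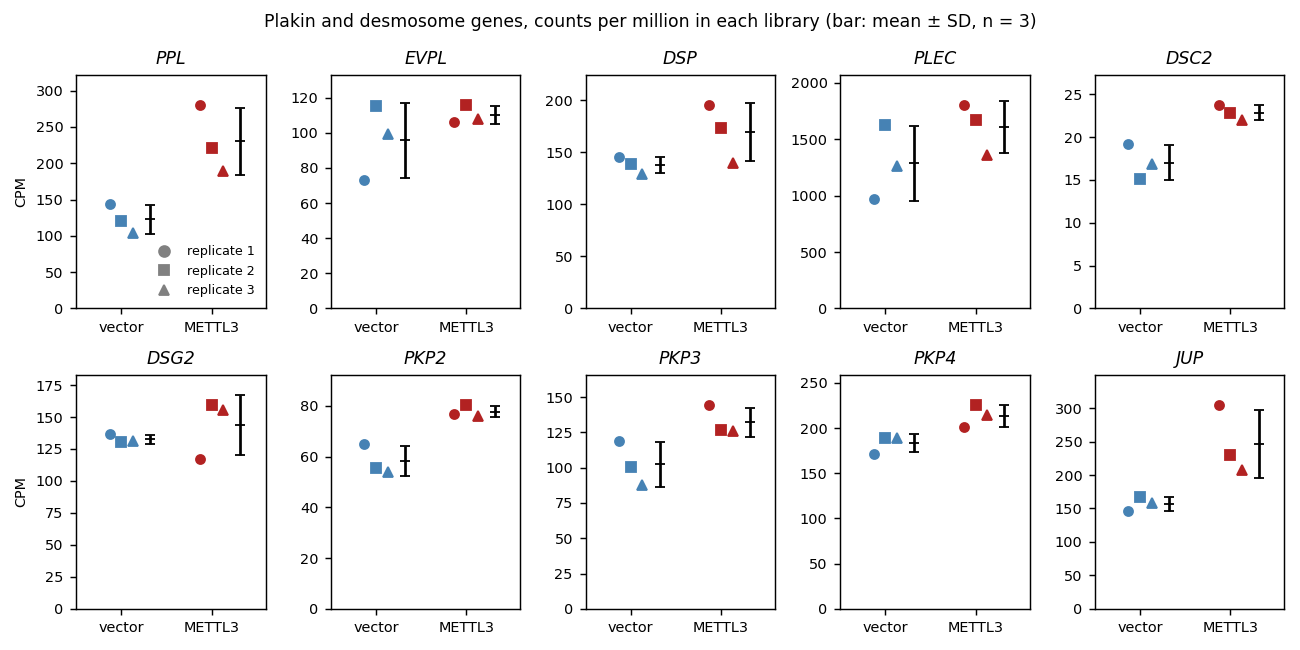
CPM of each member in 3 vector (blue) and 3 METTL3 (red) libraries, with the replicate number as the marker shape, each axis from 0, and bars for mean ± SD (n = 3). The groups do not overlap for PPL, DSC2, PKP2, PKP3, PKP4 and JUP, and the vector library of replicate 1 is the lowest for EVPL and PLEC.

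Among the plakins, PPL, a linker of keratin to the cornified envelope and the desmosomal plaque, had the highest difference. It stood at 280, 221 and 190 CPM in METTL3 libraries 1 to 3 and at 144, 121 and 104 CPM in vector libraries 1 to 3. The lowest METTL3 value exceeded the highest vector value, and in both groups replicate 1 was highest and replicate 3 lowest. The log2 difference was 0.91 (SE 0.18), or 1.88-fold, and within each replicate number it was 0.96, 0.87 and 0.87. Without replicate 1 the fitted difference of PPL was 0.87 (SE 0.08).

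EVPL stood at 106, 116 and 108 CPM with METTL3 and at 73.0, 115 and 99.2 CPM with vector, libraries 1 to 3 in order. The groups overlapped, and vector library 1 was lowest. DSP, the obligate plakin of desmosomes, stood at 196, 174 and 140 CPM with METTL3 and at 145, 139 and 129 CPM with vector. Its groups overlapped because METTL3 library 3 lay below vector library 1. PLEC stood at 1802, 1669 and 1356 CPM with METTL3 and at 966, 1627 and 1265 CPM with vector, with vector library 1 lowest. The log2 differences were 0.20 (SE 0.17) for EVPL, 0.30 (SE 0.14) for DSP and 0.32 (SE 0.21) for PLEC, with adjusted p-values of 0.735, 0.621 and 0.661 (edgeR). Without replicate 1 the differences of EVPL and PLEC were both 0.06.

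The desmosomal cadherins were both higher on average, DSC2 more clearly than DSG2. DSC2 stood at 23.7, 22.8 and 22.0 CPM with METTL3 and at 19.1, 15.1 and 16.8 CPM with vector, with no overlap (log2 difference 0.42, SE 0.13, edgeR adjusted p = 0.486). DSG2, the desmoglein of simple epithelia, stood at 117, 159 and 156 CPM with METTL3 and at 136, 130 and 131 CPM with vector. METTL3 library 1 was the lowest of all 6 for DSG2 whereas METTL3 libraries 2 and 3 were the highest (log2 difference 0.12, SE 0.14, adjusted p = 0.812). DSC2 and DSG2 lie on chromosome 18.

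The plakophilins bind desmosomal cadherins and plakins at the plaque, and all 3 had groups that did not overlap. PKP2 stood at 76.9, 80.2 and 76.0 CPM with METTL3 and at 64.9, 55.6 and 54.0 CPM with vector (log2 difference 0.42, SE 0.11, edgeR adjusted p = 0.433). PKP3 stood at 144, 126 and 126 CPM with METTL3 and at 119, 101 and 87.6 CPM with vector (0.37, SE 0.14, adjusted p = 0.565). The gap between the groups was narrower for PKP3 than for PKP2. PKP4 stood at 201, 225 and 214 CPM with METTL3 and at 171, 189 and 189 CPM with vector (0.22, SE 0.11, adjusted p = 0.629).

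JUP had the largest difference of the 9 tested members. It stood at 304, 230 and 207 CPM with METTL3 and at 147, 168 and 158 CPM with vector. The groups did not overlap, and METTL3 library 1 was far above METTL3 libraries 2 and 3. The log2 difference was 0.65 (SE 0.16, edgeR adjusted p = 0.400), and within replicate numbers it was 1.05, 0.46 and 0.39.

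In replicates 2 and 3 alone, 6 of the 9 members rose with METTL3 (edgeR adjusted p-value under 0.05), against 6.66% of 22046 genes called higher and 8.59% called lower. The leading difference was that of PKP2 (log2 0.51, SE 0.06, adjusted p = 2.44e-05), followed by DSC2 (0.49, adjusted p = 0.00049) and JUP (0.42, adjusted p = 0.000233). PKP3 (0.42, adjusted p = 0.000364), DSG2 (0.27, adjusted p = 0.00255) and PKP4 (0.21, adjusted p = 0.0117) also passed. Both cadherins, all 3 plakophilins and JUP thus passed, whereas the plakins DSP (0.22, adjusted p = 0.159), EVPL (0.06, 0.651) and PLEC (0.06, 0.881) did not. DSP had a difference like that of PKP4 but a larger SE (0.09 against 0.05). PPL, also a plakin but not tested, differed by 0.87. This fit has 2 libraries a group and was run with the standing of replicate 1 already known. When the trend with GC content and length was also removed from these 4 libraries, EVPL (0.18, adjusted p = 0.0059) and DSP (0.24, adjusted p = 0.00818) passed as well, against 12.4% of genes called higher, and PLEC (0.15, adjusted p = 0.0567) did not. With the replicate number as a block in place of that removal, DSP passed in addition to the 6, against 11.3% of genes called higher. Both of these fits were chosen after the data were seen.

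**Figure D3:**
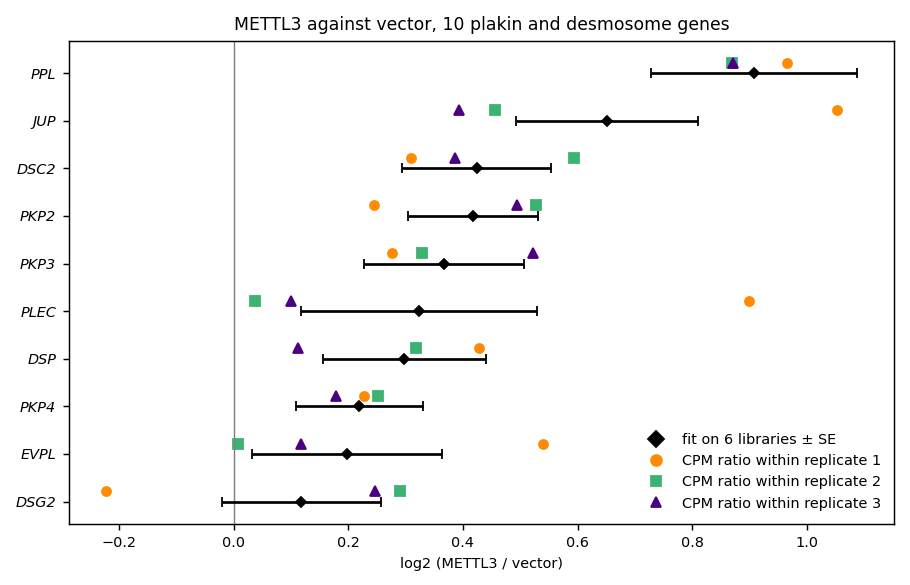
Log2 difference between METTL3 and vector for each member: black diamonds give the fit on 6 libraries ± SE, and coloured markers the CPM ratio within each replicate number. All 10 fitted values lie above 0, and the only ratio below 0 is that of DSG2 in replicate 1.

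Replicate 1 itself did not differ from replicates 2 and 3 for any member at an adjusted p-value under 0.05 (edgeR with the group in the model). The nearest was PPL, at 0.40 higher in replicate 1 on the log2 scale (SE 0.11, adjusted p = 0.0635). EVPL was at -0.31 (SE 0.13, adjusted p = 0.189) and PKP3 at 0.27 (SE 0.10, adjusted p = 0.127). DESeq2, upper-quartile scaling and removal of the GC and length trend each called PPL higher in replicate 1, against 16.2%, 9.5% and 15.1% of all genes called in either direction. With low counts not filtered PPL and EVPL passed, PPL higher and EVPL lower in replicate 1, against 9.79% of genes.

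The interaction of METTL3 and replicate 1, the METTL3 difference in replicate 1 minus that in replicates 2 and 3, passed for 3 of the 9 members (edgeR adjusted p-value under 0.05). It passed for 30.2% of all genes, so the count is near the background and is no result about these members. It was 0.48 greater on the log2 scale in replicate 1 for EVPL (SE 0.12, adjusted p = 0.00885) and 0.63 greater for JUP (SE 0.10, adjusted p = 0.000629). It was 0.49 smaller for DSG2 (-0.49, SE 0.09, adjusted p = 0.000964), whose ratio within replicate 1 was -0.22 against 0.29 and 0.25 in replicates 2 and 3. Replicate 1 has 1 library per group, so this test takes its spread from replicates 2 and 3, with 2 residual degrees of freedom, and a difference of the lone libraries from others of their kind cannot be told apart from a difference in the METTL3 effect.

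The members also differed in GC content. The transcripts of PLEC (67.0% GC), PKP3 (66.7%), EVPL (65.2%), JUP (61.5%) and PPL (59.5%) lay above the upper quartile of all protein-coding genes tested (56.9%, median 48.8%), DSG2 (41.2%) and DSC2 (38.9%) lay below the lower quartile (42.0%), and DSP, PKP4 and PKP2 lay between. Among the GC-rich members the interaction was 0.83 for PLEC, 0.63 for JUP, 0.48 for EVPL, 0.09 for PPL and -0.14 for PKP3. For the members below the lower quartile it was -0.49 for DSG2 and -0.18 for DSC2. After the GC and length trend of each library was removed, the effect in replicate 1 minus that in replicates 2 and 3 was -0.20 for EVPL (adjusted p = 0.0534) and 0.22 for JUP (adjusted p = 0.0762), neither past the threshold, while DSG2 kept -0.49 (adjusted p = 0.000123). PKP2 (-0.34, adjusted p = 0.00425) and PKP3 (-0.58, adjusted p = 3.58e-05) passed in that fit, against 27.2% of all genes. The part of GC content in these differences was not tested.

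The patterns over the 6 libraries were compared by the root mean square difference of centred log2 CPM among 10779 protein-coding genes of at least 5 CPM. The genes nearest to PPL were PLEKHA7 (0.0945), ATP2C2 (0.104), C6orf132 (0.106), SHROOM3 (0.111) and AGFG2 (0.12). No member was among them, the nearest being JUP in place 109. PLEKHA7, which codes for an adherens junction protein, stood at 212, 155 and 147 CPM with METTL3 and at 117, 94.8 and 90.1 CPM with vector.

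DSC2 and PKP2 were the most alike of the members. PKP2 was the third nearest gene to DSC2 (0.0679) after SLC1A3 (0.0464) and CTDSPL (0.0583), while DSC2 was in place 13 for PKP2, whose nearest genes were FRMD3 (0.037), MYO5C (0.0467) and REPS2 (0.048). For PKP3 the nearest genes were UNC93B1, URGCP and SYK, with PKP2 in place 60. The genes nearest to JUP were FHIP1A, FAM83H and PPARA, those nearest to DSP were NSD1, RSPH3 and CEP350, and those nearest to EVPL were ARAP1, PRKD2 and USP19. For DSG2 they were PCGF5, SPATA5 and HERC4, and for PKP4 they were E4F1, RHOBTB1 and NHERF2. These are descriptions over 6 libraries that include both groups.

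The wider junction list held 44 genes, of which 36 passed the filter on low counts. None of the 36 passed an adjusted p-value of 0.05 on 6 libraries (edgeR), and DESeq2 called EPPK1 and CDH1, both higher, against 0.876% of all genes. With low counts not filtered 6 passed, EPPK1, CDH1, CDH3, ITGB4 and GRHL2 higher and VIM lower. Of 43096 genes, 337 were called higher and 223 lower in that setting. Of the 36, 27 had a positive log2 difference, against 44.9% of the genes with at least 10 CPM, though the list also holds genes below that level. All METTL3 libraries lay above all vector libraries for 7 and below them for 3, against 8.47% and 8.93% of all genes. Without replicate 1, 13 of 37 rose and 4 fell, against 6.66% and 8.59% of all genes. The 13 include IVL, which the study had listed among the genes raised by METTL3.

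The desmosomal genes of stratified epithelium were close to absent. DSC1, DSG1, DSG3, DSG4 and CDSN did not pass the filter and stood below 0.1 CPM in every library, while DSC3 and PKP1 were at most 0.337 and 1.38 CPM. PKP1, a plakophilin of stratified epithelium, differed by -0.29 (SE 0.36, adjusted p = 0.825) and fell in replicates 2 and 3 (-0.83, adjusted p = 0.0427). PERP, a tetraspan desmosome protein, stood at 221 to 253 CPM with METTL3 and at 227 to 244 CPM with vector, with a log2 difference of -0.01 (SE 0.11, adjusted p = 0.993). The desmosomal cadherins measured above 1 CPM in OVCAR5 were thus DSC2 and DSG2.

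Among the other plakins, MACF1, which crosslinks actin and microtubules, stood at 430, 392 and 306 CPM with METTL3 and at 288, 324 and 304 CPM with vector (log2 difference 0.30, SE 0.15, adjusted p = 0.626), and by 0.15 without replicate 1 (adjusted p = 0.467). DST, which codes for dystonin, differed by 0.12 (SE 0.19, adjusted p = 0.87). EPPK1, or epiplakin, was named after its values were seen: 61.1, 29.4 and 21.7 CPM with METTL3 and 15.9, 19.1 and 15.2 CPM with vector, with no overlap. Its METTL3 library 1 was the highest, and without replicate 1 the log2 difference of EPPK1 was 0.58 (adjusted p = 0.106) in place of 1.16 (adjusted p = 0.454).

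In the adherens junction group, E-cadherin (CDH1), also named after its values were seen, had the lowest adjusted p-value of the list. It stood at 439, 358 and 346 CPM with METTL3 and at 201, 184 and 189 CPM with vector (log2 difference 0.99, SE 0.13, edgeR adjusted p = 0.17). The groups were far apart, and in replicates 2 and 3 alone CDH1 rose by 0.91 (adjusted p = 7.46e-08). N-cadherin (CDH2), the cadherin of mesenchymal cells, was near the floor, at 0.213, 0.347 and 0.109 CPM with METTL3 and 0.285, 0.0442 and 0.0362 with vector. It differed by 0.92 (SE 0.79, edgeR adjusted p = 0.742) on 6 libraries, and in replicates 2 and 3 CDH2 rose by 2.49 (adjusted p = 0.0305). Of the catenins that link cadherins to actin, CTNNA1 differed by 0.02 (adjusted p = 0.978) with overlapping groups. CTNNB1 differed by -0.14 (adjusted p = 0.715), with all METTL3 libraries below all vector libraries. CDH3, named after its values were seen, differed by 0.75 (SE 0.32, edgeR adjusted p = 0.599) with overlapping groups. In replicates 2 and 3 CDH3 rose by 0.59 (adjusted p = 0.00018), and it was 0.89 higher in replicate 1 than in the others (SE 0.11, adjusted p = 0.00662).

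Among hemidesmosome genes, the integrin subunit ITGB4, which binds plectin, stood at 449, 375 and 328 CPM with METTL3 and at 213, 314 and 266 CPM with vector (log2 difference 0.54, SE 0.18, adjusted p = 0.526). The groups did not overlap, and ITGB4 rose in replicates 2 and 3 (0.28, adjusted p = 0.0474). ITGB4, below ITGA6 and CD151 in mean CPM, was named after its values were seen. Its partner ITGA6 differed by 0.04 (SE 0.16, adjusted p = 0.956), and by -0.06 without replicate 1 (adjusted p = 0.54). CD151, a tetraspanin bound to that integrin, stood at 319, 297 and 300.0 CPM with METTL3 and at 365, 343 and 336 CPM with vector (-0.19, SE 0.11, adjusted p = 0.648). All METTL3 libraries lay below all vector libraries, and in replicates 2 and 3 CD151 fell (-0.19, adjusted p = 0.0192).

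The keratins of simple epithelium, KRT8 and KRT18, are the filaments that desmosomes anchor and differed by 0.04 and 0.06 on 6 libraries (adjusted p = 0.964 and 0.925). In replicates 2 and 3 both rose, by 0.23 and 0.23 (adjusted p = 0.00592 and 0.00516), and vector library 1 was the highest of all 6 for each. KRT8 and KRT18 overlap on opposite strands. VIM, the intermediate filament of mesenchymal cells, was named after its values were seen: 110, 309 and 305 CPM with METTL3 and 264, 517 and 522 CPM with vector. Library 1 was the lowest of each group and the groups overlapped (log2 difference -0.85, SE 0.40, adjusted p = 0.617), while in replicates 2 and 3 VIM fell (-0.76, adjusted p = 3.24e-07).

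Of the cornified envelope genes, KAZN, or kazrin, which binds PPL, stood at 10.4 to 21.8 CPM and differed by 0.03 (adjusted p = 0.981), and by -0.18 without replicate 1 (adjusted p = 0.0916). IVL, or involucrin, stood at 0.615 to 2.26 CPM and differed by 0.23, and by 0.89 in replicates 2 and 3. The study had listed IVL, like PPL, among the genes raised by METTL3 in this comparison. Its differences are therefore given as descriptions. Among the epithelial transcription factors, GRHL2 stood at 64.2, 54.0 and 51.1 CPM with METTL3 and at 46.2, 31.2 and 28.5 CPM with vector (log2 difference 0.68, SE 0.19, adjusted p = 0.45). KLF4 stood at 65.4, 42.5 and 41.6 CPM with METTL3 and at 33.4, 35.8 and 35.6 CPM with vector (0.51, SE 0.18, adjusted p = 0.551). Neither factor's groups overlapped, and in replicates 2 and 3 GRHL2 rose by 0.81 (adjusted p = 1.16e-06) and KLF4 by 0.23 (adjusted p = 0.0129).

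**Figure D4:**
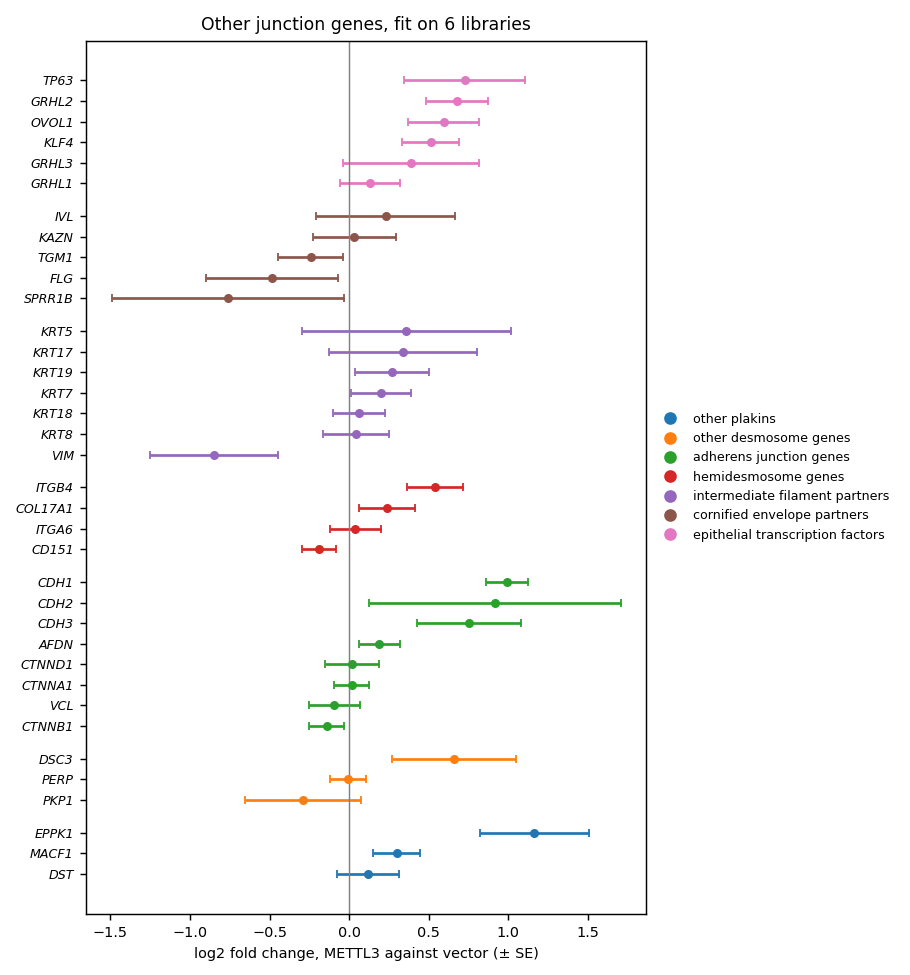
Log2 difference between METTL3 and vector ± SE (fit on 6 libraries) for the 36 tested genes of the wider junction list, coloured by role. Of the 36 points 27 lie above 0, CDH1 has a difference of 0.99, and none passed an adjusted p-value of 0.05.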

How the data were processed

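RNA-seq libraries of OVCAR5 cells, 3 with METTL3 and 3 with empty vector, were analysed from 1 table of raw counts deposited by the authors. Per the submitters' processing notes, fastp, HISAT2, featureCounts and Subread were used with hg38 (versions not given in the sources used here). The labels name a stranded poly(A) kit with paired reads, and the paper another kit with single reads, so the counting settings are unknown. Low counts (1 to 20) were mostly even (67.6% to 70.5%), which makes counts less precise than their size implies.

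Gene identifiers were matched to GENCODE 44 (GRCh38), which named 60507 of 60649 rows. Genes passing filterByExpr (22038) were tested with edgeR 4.0.16 (TMM, quasi-likelihood, R 4.3.3) across all genes with Benjamini-Hochberg adjustment. DESeq2 1.42.0, other scalings and filters, GC and length removal by splines (5 degrees of freedom), halved counts, left-out libraries and a replicate block were alternatives. In a simulation of the METTL3 comparison over 21547 genes, edgeR recovered 49% of 200 genes changed 2-fold, with 5.77% of its calls unchanged genes, and DESeq2 76% with 22.4%. The simulated interaction test recovered 0%. The counts of both simulations were drawn gene by gene with the spread of all 6 libraries, replicate 1 included. They held no shift common to both libraries of replicate 1, unlike the data. The simulated shares therefore do not measure what the METTL3 or interaction tests can recover here. CPM uses TMM factors, and SE is the log2 difference over the root of its F statistic. TPM uses merged exons.

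No 2 libraries were identical. The replicate numbers were taken to pair the libraries, a hint from the data and not from the labels. Same-numbered libraries deviated together (correlations 0.34, 0.12 and 0.17, all above 0.1). Numbers 2 and 3 were not told apart: METTL3 2 with vector 3 gave 0.21, and METTL3 3 with vector 2 gave 0.13. Pairs of a library 1 with a library of another number gave -0.29 to -0.19, so only number 1 was set apart. The members, the junction list and the tests were chosen with earlier results of these data known. Genes named were all members, METTL3, the 2 highest by mean CPM in each role of the junction list, any of that list that passed in the edgeR test on 6 libraries (none did), the 5 genes nearest to PPL and the 3 nearest to each other member called in any test. EPPK1, CDH1, CDH2, CDH3, ITGB4 and VIM were added after their values were seen.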

Additional observations from a re-analysis of the deposited data

Results flagged for a closer look

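For EVPL, JUP and DSG2, the METTL3 difference in replicate 1 departed from that in replicates 2 and 3 in the edgeR interaction test (adjusted p-value under 0.05). The difference was 0.48 on the log2 scale for EVPL, 0.63 for JUP and -0.49 for DSG2. The test passed for 30.2% of all genes, so 3 of 9 members is near the background. It sets 1 library per group against the spread of replicates 2 and 3, with 2 residual degrees of freedom. In simulated data it recovered 0% of genes changed 2-fold. Those data had the spread of all 6 libraries, replicate 1 included, so the 0% does not measure what the test can recover here. With the GC and length trend removed, EVPL gave -0.20, JUP 0.22 and DSG2 -0.49, and of these 3 only DSG2 passed.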

How the results depend on the processing

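All 10 members kept a positive log2 difference between METTL3 and vector under all 22 settings run. The count of members other than PPL that passed was 0 on 6 libraries. It was 1 with no filter on low counts (JUP), 2 with DESeq2 (PKP2 and JUP) and 0 to 6 when 1 library or 1 replicate number was left out (PKP2 without vector replicate 1, and 6 without replicate 1). Chosen after seeing the data, replicates 2 and 3 alone gave 7 with the replicate block and 8 with the GC and length trend removed. For the wider junction list the count was 0 on 6 libraries, 6 with no filter, 2 with DESeq2, 0 to 17 with a library or number left out (3 without vector replicate 1 and 17 without replicate 1), and 22 and 19 in the 2 fits on replicates 2 and 3. With the replicate block on 6 libraries, 0 members and 0 list genes passed, so that pairing changed no call. Across all genes, 0 passed in edgeR, 280 in DESeq2, 560 with no filter, 367 without vector replicate 1 and 3362 without replicate 1. In the 2 fits on replicates 2 and 3, 5450 of 22046 genes passed with the block and 4712 with the trend removed. Of the list genes called in these 2 fits, 5 of 22 and 3 of 19 were lower. IVL, which the study had listed as raised by METTL3, is in the counts of 17, 22 and 19. Between replicate 1 and the others, no member passed, 1 passed with upper-quartile scaling, 1 with DESeq2, 1 with the GC and length trend removed, and 2 with no filter. With the GC and length trend removed, the replicate 1 difference of PLEC turned from -0.145 to 0.0835. In the same setting, chosen after seeing the data, the METTL3 effect in replicate 1 minus that in the others turned to -0.45 for PPL, -0.20 for EVPL, -0.10 for DSP, -0.0308 for PLEC and -0.16 for PKP4. The causes were not tested. Of 370 further values of single members, 326 were classed as unchanged. For tested values this meant the same direction and the same side of the threshold. For the METTL3 difference of PPL it meant the same direction and a move smaller than the SD between libraries. For levels per length it meant a move smaller than that SD.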
